A study of Homo sapiens with 3 samples.

Results

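The 4 human vault RNA genes, VTRNA1-1, VTRNA1-2, VTRNA1-3 and VTRNA2-1, were described in double-stranded RNA (dsRNA) sequencing of the cell line HEK 293, which derives from human embryonic kidney. They were found by position on chromosome 5 of the hg19 build, in a window of 17 kb that holds the VTRNA1 genes in the order VTRNA1-1, VTRNA1-2, VTRNA1-3 and a window of 0.7 kb that holds VTRNA2-1. These windows took in 7 of the 271645 dsRNA regions listed for both libraries. Of these, 4 were the regions at the genes and 3 were low regions beside VTRNA1 genes. The genes were chosen by their position, with their summits and widths in both libraries known, so these values are a description and carry no test.

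Vault RNAs are short noncoding RNAs made by RNA polymerase III. They are named for the vault, a large barrel-shaped ribonucleoprotein particle of the cytoplasm, although most vault RNA in a cell is not bound to it. The VTRNA1 genes form a cluster, while VTRNA2-1, also called nc886 and once listed as a microRNA precursor, lies apart from them and is known as an inhibitor of the dsRNA-activated kinase PKR. Vault RNAs fold back on themselves into a stem that joins their ends, and in human cells small RNAs cut from VTRNA1-1 by DICER have been described.

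The series held 3 libraries in 3 groups of 1 library each. Dicer knockdown HEK 293 cells gave 1 dsRNA library and wild-type HEK 293 cells the other, and the last library was ChIP-seq in wild-type cells, the sequencing of DNA pulled down from chromatin with a DICER antibody. The sources used here do not state how the knockdown was made. For dsRNA, total RNA was digested with the nuclease T1, which cuts single-stranded RNA after guanosine, and the RNA that was left was sequenced. Each region has a summit, the whole-number height of its read coverage at the highest point. The summit reflects RNA left after digestion. The series has no library of undigested RNA, so neither summits nor their ratios measure the level of an RNA. The sheet named induced was read as knockdown and the sheet named normal as wild type, which rests on the names only, since both samples carry identical copies of the workbook. All directions would turn round if this reading were wrong. With 1 library per group there is no replicate error, and each ratio sets 1 library against another, not 1 condition against another. Intervals are 95% exact binomial intervals and cover counting error only, with reads not marked by molecular identifiers.

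The depth of each library is unknown, because the sheets list paired regions and not all reads. Summits added up to 84057405 in knockdown and 80502410 in wild type, and the median summit was 2 in knockdown and 3 in wild type. At DICER1, the gene that was knocked down, 23 regions were listed, by general knowledge of hg19 and a gene length within 20% of that in the RefSeq table. They measure dsRNA and not DICER1 mRNA, so they do not measure the knockdown. The highest, at chromosome 14, 95566144 to 95566213 in the knockdown sheet, had a summit of 416 in knockdown and 52 in wild type and was 69 bp wide in knockdown and 64 bp in wild type. The other 22 had summits of 1 to 6 in knockdown and 1 to 21 in wild type. The region was singled out after its values were seen.

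VTRNA1-2 was the highest vault RNA region. It had a summit of 3138693 in knockdown and 1511983 in wild type, at chromosome 5, 140098485 to 140098671 in knockdown and 140098485 to 140098657 in wild type. By height it ranked 3 among all 271645 regions in knockdown and 9 in wild type. It held 3.73% of the summed summits in knockdown (interval 3.73% to 3.74%) and 1.88% in wild type (interval 1.88% to 1.88%).

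VTRNA2-1 came next, with a summit of 758772 in knockdown and 474624 in wild type. Its region lay at chromosome 5, 135416122 to 135416319 in knockdown and 135416118 to 135416318 in wild type. It ranked 22 in knockdown and 49 in wild type.

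The other VTRNA1 genes were far lower. VTRNA1-3, the last gene of the cluster, had a summit of 16840 in knockdown and 10463 in wild type, at chromosome 5, 140105708 to 140106014 in knockdown and 140105707 to 140106012 in wild type. VTRNA1-1, the first gene of the cluster and the usual major vault RNA of human cell lines, had the lowest summit of the 4, with 14132 in knockdown and 5789 in wild type. Its region lay at chromosome 5, 140090824 to 140091025 in knockdown and 140090820 to 140091064 in wild type. Their ranks by height were 320 and 360 in knockdown, against 389 and 527 in wild type. The order by summit is not an order of RNA levels, which were not measured.

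**Figure D1:**
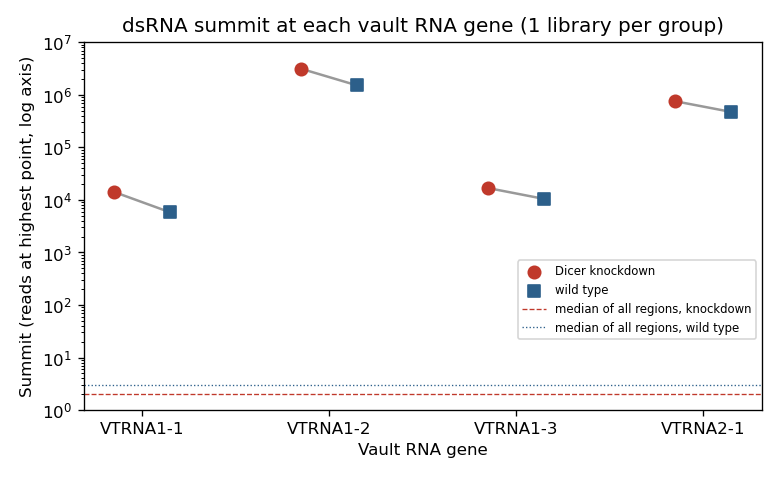
Summit (reads at the highest point of a region, log axis) at each vault RNA gene in the Dicer knockdown library (red circles) and the wild-type library (blue squares), 1 library per group, with dashed and dotted lines at the median of all 271645 regions. The knockdown point is the higher one at all 4 genes, and VTRNA1-2 (3138693 and 1511983) and VTRNA2-1 (758772 and 474624) stand far above VTRNA1-3 and VTRNA1-1.

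The order of the 4 genes by summit was the same in both libraries. A summit is a height at 1 point, so it was compared between genes without a correction for length. VTRNA1-2 was 222-fold above VTRNA1-1 in knockdown (interval 218 to 226) and 261-fold above it in wild type (interval 255 to 268). The smallest step in the order was between VTRNA1-3 and VTRNA1-1, with a ratio of 1.19 in knockdown (interval 1.17 to 1.22) and 1.81 in wild type (interval 1.75 to 1.87). No replicate spread is known for any of these steps. The genes are related in sequence, and the sources used here do not state how reads that match more than 1 of them were placed, so the split of reads among VTRNA1-1, VTRNA1-2 and VTRNA1-3 is uncertain.

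Together, the 4 genes held 4.67% of all summed summits in knockdown (interval 4.67% to 4.68%) and 2.49% in wild type (interval 2.48% to 2.49%). VTRNA1-2 made up 79.9% of their height in knockdown and 75.5% in wild type.

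The study's design asks how dsRNA differs when Dicer is depleted. All 4 vault RNA genes had a higher summit in knockdown, where 26.9% of the 35876 regions whose summits add up to 20 or more and 52.1% of the 1003 regions of the deposited final set were higher after scaling. For the ratio, knockdown summits were multiplied by 0.958 so that both libraries had the same sum, and 1 was added to each value before taking the log2 ratio. VTRNA1-1 was 2.34-fold higher in knockdown (interval 2.27 to 2.41), a log2 ratio of 1.23. VTRNA1-2 was 1.99-fold higher (interval 1.98 to 1.99), a log2 ratio of 0.99, just under a 2-fold difference. VTRNA1-3 was 1.54-fold higher (interval 1.50 to 1.58) and VTRNA2-1 was 1.53-fold higher (interval 1.53 to 1.54). The unscaled folds were 2.44 for VTRNA1-1, 2.08 for VTRNA1-2, 1.61 for VTRNA1-3 and 1.60 for VTRNA2-1.

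Of the 4 genes, 1 was at least 2-fold higher in knockdown and 0 were lower by as much. Among the 35876 regions, 5.07% were at least 2-fold higher and 30.8% at least 2-fold lower. The median log2 ratio was 0.81 over the 4 genes and -0.53 over these 35876 regions. Most of these regions are low, so the deposited final set, 1003 regions of high summit that holds all 4 genes, gives a closer setting. No region of the set had a summit under 1506 in knockdown or 1507 in wild type. A region low in either library is thus left out, which limits large ratios among the lower members. The median log2 ratio of the set was 0.03, and 6.78% of it was higher by 2-fold or more. The ratio of VTRNA1-1 exceeded that of 96.4% of the final set, VTRNA1-2 that of 92.9%, VTRNA1-3 that of 82.1% and VTRNA2-1 that of 81.6%. Thus all 4 sat in the upper part of the set, but none of them was at its top.

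**Figure D2:**
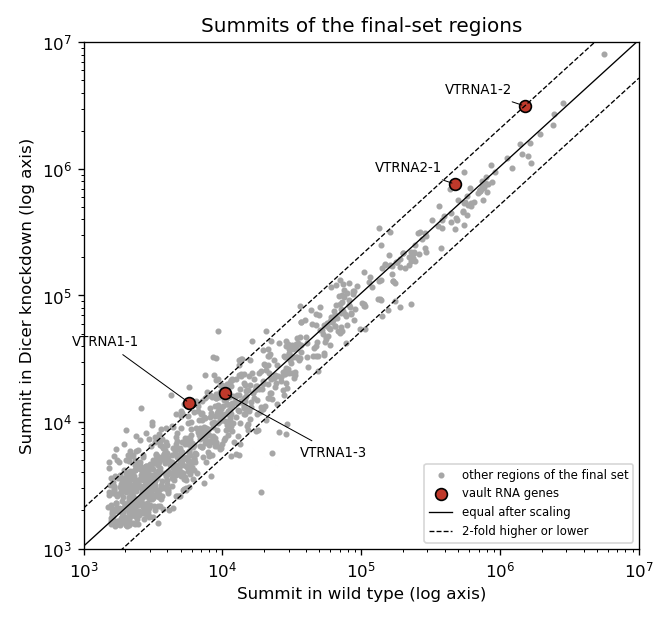
Summit in the Dicer knockdown library (vertical, log axis) against the wild-type library (horizontal, log axis) for the 1003 regions of the deposited final set, with the 4 vault RNA genes in red. The solid line marks equal summits after scaling and the dashed lines a 2-fold difference. VTRNA1-1 lies above the upper dashed line, VTRNA1-2 almost on it, and VTRNA1-3 and VTRNA2-1 between it and the solid line.

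Large ratios were less common at the height of VTRNA1-2. Of the 116 regions whose mean summit was at least 100000, 0.862% (1 region) were higher by 2-fold or more and the median log2 ratio was -0.12. VTRNA1-2 had the 2nd highest ratio of these 116 and VTRNA2-1 the 8th. The region above VTRNA1-2 was at chromosome 1, 16840487 to 16840798 in knockdown, with a summit of 344248 in knockdown and 133171 in wild type (2.48-fold). VTRNA1-3 ranked 61 by ratio among the 311 regions with a mean summit of 10000 to below 100000, of which 6.43% were higher by 2-fold or more. VTRNA1-1 ranked 25 among the 346 regions at 3000 to below 10000, of which 12.7% were higher by as much.

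How many genes were higher by 2-fold rested on the scaling. It was 1 scaled to the sums, and also 1 scaled to the median ratio of the final set (background 4.68% of the 35876 regions). It was 2 unscaled (background 5.75%) and 2 with the vault RNA regions left out of the sums (background 5.25%). It was 4 scaled to the median ratio of the 35876 regions (background 12.8%) and 4 with sums that leave out the top 1% of regions (background 11.5%). The last 2 scalings raised the ratio of each of the 4 genes by 0.55 and 0.49 log2 units. They moved the median of the final set to 0.58 and 0.52 and that of the 4 genes to 1.36 and 1.30. All 4 genes were higher in knockdown under each of the 6 scalings. Of the 35876 regions, 26.9% were higher by any amount scaled to the sums. Scaled to their median ratio, 49.8% were lower, a share set by that scaling. With the final set at a median of 0, which gave the lowest ratios, the median over the 4 genes was 0.78.

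Ratios between genes of 1 library do not depend on any scaling, and by these the 4 genes differed to unequal degrees. VTRNA1-2 over VTRNA2-1 was 4.14 in knockdown (interval 4.13 to 4.15) and 3.19 in wild type (interval 3.18 to 3.20). VTRNA1-2 over VTRNA1-3 was 186 in knockdown (interval 184 to 189) and 145 in wild type (interval 142 to 147). VTRNA2-1 over VTRNA1-1 was 53.7 in knockdown (interval 52.8 to 54.6) and 82.0 in wild type (interval 79.9 to 84.2). The ratio of VTRNA2-1 to VTRNA1-3 was nearly the same in both, at 45.1 in knockdown (interval 44.4 to 45.8) and 45.4 in wild type (interval 44.5 to 46.3), with intervals that overlap. VTRNA1-1 and VTRNA1-2 were thus higher in knockdown relative to the other two genes. Between themselves, the direction turned with the measure: VTRNA1-2 over VTRNA1-1 changed by -0.23 log2 units by summit and by 0.16 by summit times region width. The unknown placement of reads shared among the VTRNA1 genes also limits these ratios, above all for the low VTRNA1-1 and VTRNA1-3. The intervals do not cover it.

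The regions were wider than the genes. RefSeq gives a length of 98 bp for VTRNA1-1, 88 bp for VTRNA1-2, 88 bp for VTRNA1-3 and 108 bp for VTRNA2-1. The region at VTRNA1-1 was 201 bp wide in knockdown and 244 bp in wild type. That at VTRNA1-2 was 186 bp in knockdown and 172 bp in wild type. VTRNA1-3 had the widest region, 306 bp in knockdown and 305 bp in wild type, and VTRNA2-1 had 197 bp in knockdown and 200 bp in wild type. The median width in the final set was 154 bp in knockdown and 153 bp in wild type.

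The spacing of the regions matched that of the genes. In the RefSeq table, which is of GRCh38.p14 and was used for names, lengths and spacing only, VTRNA1-2 starts 7650 bp and VTRNA1-3 starts 14883 bp after VTRNA1-1. The region starts were 7661 bp and 14884 bp apart from that of VTRNA1-1 in knockdown, and 7665 bp and 14887 bp in wild type. Relative to its gene, each region therefore began at nearly the same place, with a difference from VTRNA1-1 of 11 bp and 1 bp in knockdown and of 15 bp and 4 bp in wild type. The far ends differed. Measured from the end of the gene, the VTRNA1-3 region reached 116 bp further than that of VTRNA1-1 in knockdown and 75 bp further in wild type. The VTRNA1-2 region ended 6 bp further than that of VTRNA1-1 in knockdown and less far in wild type (a difference of -47 bp).

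Between the libraries, the start of each region moved by at most 4 bp (4, 0, 1 and 4 bp for VTRNA1-1, VTRNA1-2, VTRNA1-3 and VTRNA2-1). In the final set, 56.3% of regions had starts within that distance. The stop moved by 1 bp at VTRNA2-1 and by 2 bp at VTRNA1-3. It lay 14 bp further on in knockdown at VTRNA1-2. At VTRNA1-1 it shifted by -39 bp, and with the start this made the knockdown region narrower (a change of -43 bp). A narrowing of that size or more was found in 6.98% of the final set, and a widening of 14 bp or more in 15.7%.

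**Figure D3:**
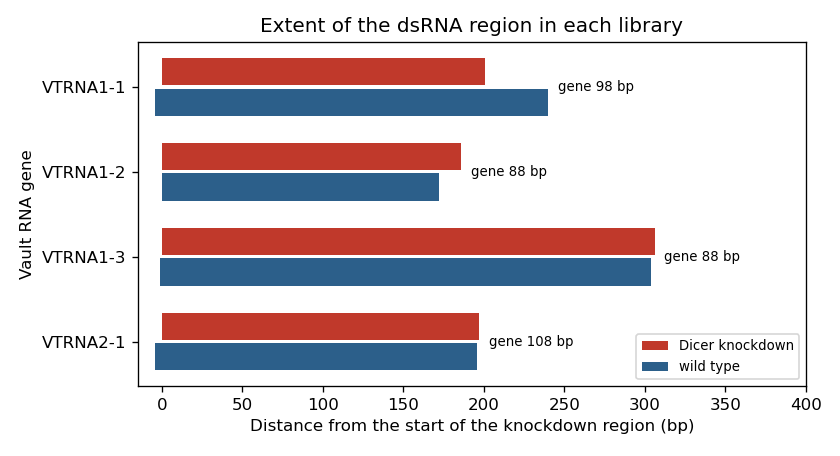
Extent of the dsRNA region at each vault RNA gene in the Dicer knockdown library (red, upper bar) and the wild-type library (blue, lower bar), as distance in bp from the start of the knockdown region, with the RefSeq gene length beside it. The starts differ by at most 4 bp, the VTRNA1-1 region is 201 bp in knockdown and 244 bp in wild type, and the VTRNA1-3 region is the widest in both libraries.

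Around the genes there was little dsRNA. The 3 low regions inside the 17 kb window had summits of 4, 6 and 4 in knockdown and 5, 2 and 5 in wild type. One of them began 60 bp after the VTRNA1-1 region in knockdown and 4 bp after it in wild type. Within 100 kb of the VTRNA1 genes, 79 other regions were listed, with a median summit of 4 (range 1 to 96) in knockdown and 6 (range 1 to 112) in wild type. The 3 highest of them by the mean of both libraries, between 140024951 and 140027246 on chromosome 5 in the knockdown sheet, had summits of 52, 56 and 96 in knockdown and 54, 73 and 112 in wild type. The lowest gene of the cluster, VTRNA1-1, was 147-fold above the highest of these in knockdown and 51.7-fold in wild type.

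VTRNA2-1 was more isolated. The nearest region was 115 kb away on the side of lower coordinates and 52.3 kb away on the other. The 28 other regions within 100 kb thus lay on the side of higher coordinates, with a median summit of 4 (range 1 to 19) in knockdown and 7 (range 2 to 41) in wild type. The 3 highest by the mean of both libraries had summits of 19, 18 and 8 in knockdown and 41, 29 and 28 in wild type.

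Most flanking regions were lower in knockdown, as were most regions of the whole list. Of the 13 around the VTRNA1 genes that reached a combined summit of 20, 12 were lower and 1 was higher in knockdown. Their median log2 ratio was -1.01. Over the 35876 regions of that height, 73.1% were lower. Of the 10 around VTRNA2-1, 8 were lower and 2 higher, with a median of -0.98. Scaled to the median ratio of the 35876 regions, the lower ones numbered 8 of 13 and 7 of 10, with medians of -0.49 and -0.48. That scaling by design makes about as many of the 35876 regions lower as higher (49.8% were lower). With so few regions, these shares are not set apart from those of the whole list.

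**Figure D4:**
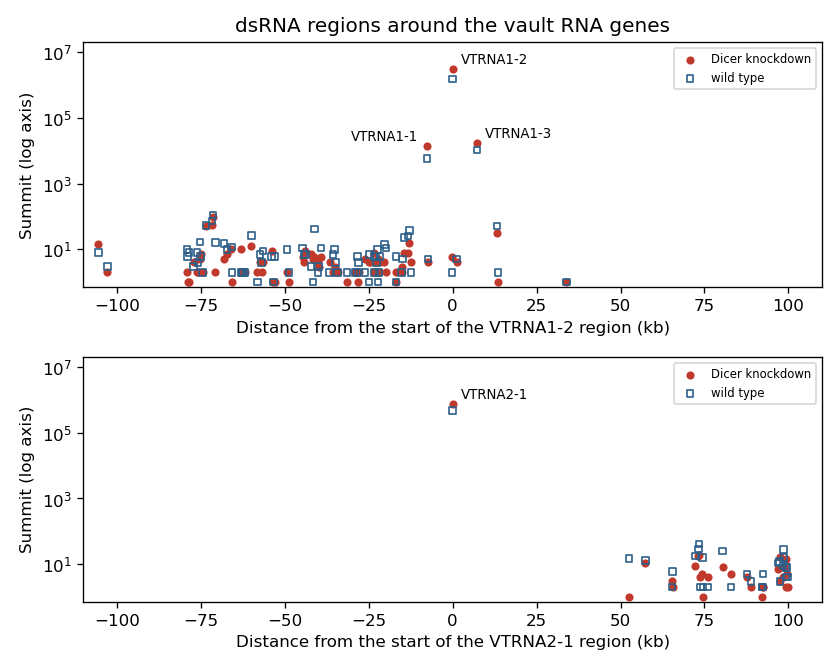
Summit (log axis) of each dsRNA region within 100 kb of the VTRNA1 genes (upper panel) and of VTRNA2-1 (lower panel), against distance in kb from the start of the VTRNA1-2 or VTRNA2-1 region, in the Dicer knockdown library (red circles) and the wild-type library (blue open squares). The genes stand alone, and no other region passes a summit of 96 in knockdown or 112 in wild type.

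The vault RNA genes were set beside 10 other loci of RNA polymerase III transcripts, placed by general knowledge of hg19 with lengths within 20% of those in RefSeq. This short list leaves out transfer RNA genes among others, and how reads that match more than 1 locus were placed is unknown here too. BCYRN1 had the lowest summit, 157 in knockdown and 224 in wild type, and the lowest log2 ratio, -0.57. A region was found at each of the 10. Their median log2 ratio was 0.06, and 5 were higher and 5 lower in knockdown, against the 52.1% of the final set and 26.9% of the 35876 regions that were higher. Of the 10, 0 passed 2-fold in either direction. Of the 1003 final-set regions, 68 were higher and 24 lower by as much, so 0 of 10 is not set apart from these shares. Scaled to the median ratio of the 35876 regions, 9 were higher and 1 lower, with a median of 0.61, and with the reduced sums 8 were higher and 2 lower, with a median of 0.55. Under the same scalings the median of the final set was 0.58 and 0.52. RNY5 then passed 2-fold, with log2 ratios of 1.16 and 1.11, where 12.8% and 11.5% of the 35876 regions were higher by as much. Only RNY5, one of the 4 Y RNA genes, whose RNAs bind the Ro60 protein, had a ratio as high as the lowest vault RNA gene. It had a summit of 697178 in knockdown and 435887 in wild type, 1.53-fold after scaling. The Y RNA genes together ranged from 1.17-fold to 1.53-fold.

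RN7SK, the gene for the 7SK RNA that holds back the elongation factor P-TEFb, was close in height to VTRNA1-2 in wild type but not in knockdown. It had a summit of 1601602 in knockdown and 1651471 in wild type. VTRNA1-2 over RN7SK was 1.96 in knockdown (interval 1.96 to 1.96) and 0.916 in wild type (interval 0.914 to 0.918), and VTRNA2-1 over RN7SK was 0.474 in knockdown (interval 0.472 to 0.475) and 0.287 in wild type (interval 0.286 to 0.288). The RNA of the signal recognition particle was similar to RN7SK in its ratio, with 0.911-fold at RN7SL1 and 0.927-fold at RN7SL2. Of the RNA subunits of related nucleases, RPPH1 of RNase P was 1.36-fold and RMRP of RNase MRP was 0.689-fold. The ratios of RN7SK, RN7SL1, RN7SL2 and RPPH1 lay below those of all 4 vault RNA genes under each scaling, since a scaling shifts these high loci alike. The sign of the first 3 turned to above 0 with the median ratio of the 35876 regions or the reduced sums, and that of RMRP to 0.01 with the first of these only. No test of the difference between these loci and the vault RNA genes was possible with 1 library per group.

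**Figure D5:**
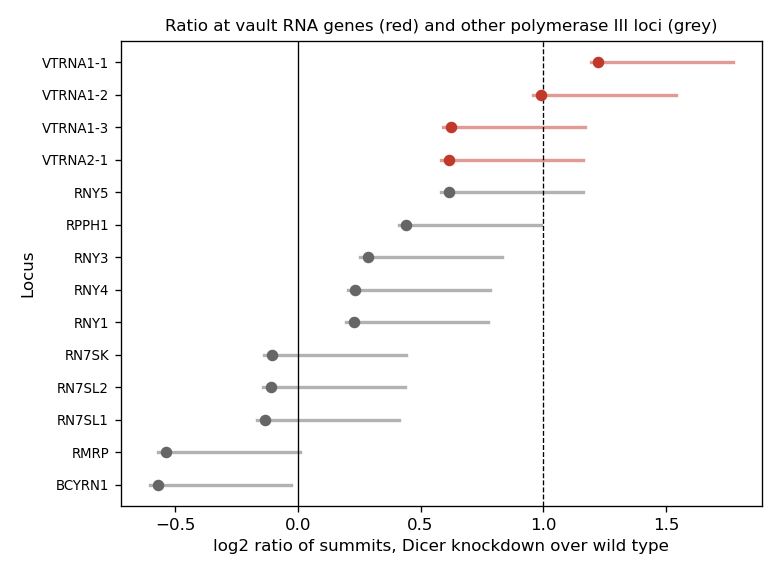
log2 ratio of summits, Dicer knockdown over wild type, at the 4 vault RNA genes (red) and the 10 other polymerase III loci (grey). Points are the values scaled to the summed summits, horizontal lines span the 6 scalings, and the dashed line marks 2-fold. The 4 vault RNA points lie between 0.61 and 1.23, and the others between -0.57 and 0.62.

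Likeness to other regions was measured as the distance between log2 summits over the 2 libraries. VTRNA1-2 had no close neighbour: the nearest, at chromosome 13, 89494668 to 89494749 in knockdown, was at a distance of 0.723, with a summit of 2694356 in knockdown and 2436201 in wild type. RN7SK was the 5th nearest, at 0.979. The region most like VTRNA2-1 was RNY5, at 0.173. VTRNA1-1 and VTRNA1-3 lie where regions are dense, and their 5 nearest were within 0.152 and 0.156. The nearest to VTRNA1-1 was at chromosome 1, 45242131 to 45242305, with 13551 in knockdown and 5953 in wild type, and the nearest to VTRNA1-3 was at chromosome 17, 27050578 to 27051373, with 17856 in knockdown and 9884 in wild type.

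The DICER ChIP library asked where DICER is bound to chromatin. None of the 119 listed peaks overlapped a vault RNA region (0 of 4). A peak overlapped 0.0423% of all regions and 5.08% of the final set, so 0 of 4 does not set the vault RNA genes apart. Only 8 peaks were on chromosome 5. The nearest to all 4 genes was at 167688554 to 167688816, with the authors' peak score of 132, at 27.6 Mb from the VTRNA1 genes and 32.3 Mb from VTRNA2-1. The list holds no peak with a score under 100.2, so weaker binding at these genes could not be seen.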

How the data were processed

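Per the labels' protocols, T1-digested total RNA was sequenced in paired-end reads (HiSeq). Per the submitters' processing notes, bcl2fastq 1.8.4 and BWA 0.7 were used for dsRNA, Bowtie 0.12.7 and MACS 1.4 for ChIP, with hg19. The sources used here do not state how regions were called. The deposited sheets hold a start, a stop and a summit per region. The summit, as deposited by the authors, is a whole-number coverage signal made from reads aligned to hg19, with no scaling to library size, and rows of both sheets were paired by number. Positions are printed as deposited. The ChIP list gives the authors' peak score.

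The VTRNA1 genes are the 3 highest regions by mean summit in the 17 kb window, named in order of position. VTRNA2-1 is the highest region in the 0.7 kb window. Knockdown summits were scaled by 0.958 to the wild-type sum of summits, and ratios are log2(summit + 1) differences, which understate ratios of low regions. Counts of 2-fold differences used a combined summit of 20 or more. Other scalings, pseudocounts, filters and summit times width were tried. The named regions were the 4 genes, the 3 highest flanking regions per locus within 100 kb, the 5 nearest patterns per gene, and listed loci with a mean summit above 1000. Others were chosen after their values were seen. Members and lists were chosen with earlier results of these data known. All 4 genes were found by name in the RefSeq table, which is no check of region width against gene length. The planned promoter motifs were not run. The ratio code was tested on simulated data with known fold changes. There the changed regions were left out of the sums, so scaling to the sums of all regions was not tested. Python 3.11.15, numpy 2.4.6, pandas 2.3.3 and scipy 1.17.1 were used.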

Additional observations from a re-analysis of the deposited data

How the results depend on the processing

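All 36 alternative log2 ratios of the 4 genes were above 0. These ratios re-express the same summits, and a scaling shifts all 4 genes alike, so they are not independent checks. In the order VTRNA1-1, VTRNA1-2, VTRNA1-3, VTRNA2-1, they were 1.29, 1.05, 0.69 and 0.68 unscaled. They were 1.77, 1.54, 1.17 and 1.16 scaled to the median ratio of the 35876 regions, and 1.72, 1.48, 1.12 and 1.11 with sums without the highest 1% of regions. Scaled to the median of the final set they were 1.19, 0.96, 0.59 and 0.58, and with the vault RNA regions left out of the sums 1.26, 1.02, 0.66 and 0.65. With summit times width as the measure they were 1.03, 1.19, 0.71 and 0.67. Pseudocounts of 0.5 and 10 and sums over regions within 500 bp moved no ratio beyond its counting interval.

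By summit times width, the log2 change between libraries was 0.16 for VTRNA1-2 over VTRNA1-1 (-0.23 by summit), -0.32 for VTRNA1-3 over VTRNA1-1, -0.35 for VTRNA2-1 over VTRNA1-1, 0.48 for VTRNA1-2 over VTRNA1-3 and 0.51 for VTRNA1-2 over VTRNA2-1.

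Regions higher and lower by 2-fold or more numbered 1819 and 11049. They numbered 4604 and 6340 when scaled to that median ratio, 4134 and 6609 with the reduced sums, 789 and 5581 with a pseudocount of 10, and 11803 and 63360 with no filter. They numbered 347 and 402 at a combined summit of 200 or more and 21 and 16 at a mean summit of 10000 or more, where fewer regions enter. The other shifts follow from the settings. The median ratio and the reduced sums multiplied knockdown summits by 1.4 and 1.35 in place of 0.958. A pseudocount of 10 further understates ratios of low regions, and no filter lets in all 271645 regions. No paired analysis was possible because neither group has more than 1 library. Depth per library is unknown, and the scaling, which decides how many of the 4 genes pass 2-fold, cannot be checked against it.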

Other observations

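A second list held 8 genes of the vault particle and of vault RNA partners, placed by general knowledge of hg19. All 8 had dsRNA regions, but none had a mean summit of 1000 or more, and the summit of the highest region per gene was 6 to 416 in knockdown and 5 to 52 in wild type. At MVP, the major protein of the vault shell, the highest of 11 regions had a summit of 10 in knockdown and 38 in wild type. At PARP4, the vault poly(ADP-ribose) polymerase, the highest of 29 had 7 in knockdown and 20 in wild type, and at TEP1, the telomerase-associated vault protein, the highest of 14 had 6 in knockdown and 5 in wild type. SSB, the gene for the La protein that binds the ends of polymerase III transcripts, had 18 in knockdown and 42 in wild type. EIF2AK2, the gene for PKR, had 16 in knockdown and 39 in wild type.

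NSUN2, an RNA methyltransferase that acts on vault RNA, had 16 in knockdown and 21 in wild type. SQSTM1, the autophagy receptor p62 that vault RNA is known to bind, had 40 in knockdown and 21 in wild type. The last of the 8 was DICER1, described above. The median log2 ratio of these highest regions was -0.83, with 3 higher and 5 lower in knockdown. It was -0.31, with 4 higher and 4 lower, scaled to the median ratio of the 35876 regions, where NSUN2 turned to 0.09. By 2-fold or more, 1 was higher (DICER1) and 4 were lower, scaled to the sums. These 8 regions were taken with no height filter, and the one at TEP1, among the 3 higher, falls short of a combined summit of 20. Over all 35876 regions with summits that add up to 20 or more, 26.9% were higher. At least 2-fold, 5.07% were higher and 30.8% lower. Counts in 8 genes are not set apart from these shares.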
